A study of Homo sapiens with 15 samples.

Results

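The genes described here carry a cell from G1 into S phase. They are the D-type cyclins CCND1, CCND2 and CCND3, their kinases CDK4 and CDK6, the E-type cyclins CCNE1 and CCNE2, their kinase CDK2, the kinase inhibitor CDKN1B and the pocket protein RB1. The members were every probe, other than control spots, whose RefSeq accession belongs to one of these 10 genes, which gave 12 probes of the 34127 on the array. All 12 were well above background in all 15 tumors, as were 28155 of the 34127. The 12 entered the tests, for which 30585 probes were kept in all. The genes named through RefSeq numbered 19483.

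RNA came from subcutaneous tumors that HCT116 cells, an established human colon cancer line, formed in athymic nude mice and that were excised at day 35. The cells had been transiently transfected with one of 5 constructs before injection, so each tumor grew from a transfected pool and not from a clone. The constructs were the empty pCDNA3 vector, Myc-tagged wild type MOAP-1, Myc-tagged MOAP-1 carrying the lysine-to-arginine change K264R, Myc-tagged MOAP-1 carrying the lysine-to-arginine change K278R, and HA-tagged wild type RASSF1A. Each construct had 3 tumors, and each tumor was read on its own single-color Agilent array. The HCT116 background and the endogenous MOAP1 gene were shared by all groups, nude mice lack mature T cells, and RNA from host cells was not separated from tumor RNA. The labels do not say whether tumors shared a mouse. The p values treat the tumors as independent and set each difference against the spread between tumors of a construct.

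D-type cyclins bind CDK4 or CDK6, and cyclin E binds CDK2. These complexes phosphorylate RB1, which then releases E2F factors and lets the genes of DNA replication be transcribed. CDKN1B binds and restrains cyclin E with CDK2, and RASSF1A has been reported to hold back cyclin D1 and the entry into S phase. Much of this control acts on protein levels and phosphorylation, which an array of mRNA does not read.

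A level is the log2 intensity of a probe after the 75th percentile of its array had been set to 0, and levels of different probes are not comparable. A probe was called when limma gave a Benjamini-Hochberg adjusted p below 0.05 over all 30585 probes and the change was at least 1.5-fold. The 75th percentile of the signal ran from 496.3 to 1402 among the arrays, and no spot was saturated. K278R tumor 2 stood apart, with the lowest of these percentiles and with a spike-in level of -0.38 against -2.55 to -1.78 on the other arrays. Slides largely followed the constructs, because the 3 K264R tumors had a slide to themselves and RASSF1A tumors 1 and 2 another, scanned on a later day. No tumor with a MOAP-1 construct shared a slide with a vector tumor or with a RASSF1A tumor. Differences of the MOAP-1 constructs from vector or from RASSF1A therefore cannot be told apart from differences between slides. All 8 epithelial markers, EPCAM and CDH1 among them, were well above background in all 15 tumors.

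The introduced constructs were checked first. The probe for MOAP1 gave -0.18, -0.53 and -0.13 in the vector tumors and 0.34, 0.71 and 0.71 in the MOAP-1 tumors, a rise of 0.86 (SE 0.14, limma adjusted p = 0.000842). It was also higher by 0.55 in K264R tumors (SE 0.14, limma adjusted p = 0.00939) and by 0.74 in K278R tumors (SE 0.14, limma adjusted p = 0.00504). The RASSF1 probe did not show the RASSF1A construct. Its levels were 1.72, 1.52 and 1.81 in vector tumors and 1.56, 1.55 and 1.59 in tumors labelled RASSF1A, a change of -0.12 (SE 0.10, limma adjusted p = 0.671). Whether the MOAP1 or the RASSF1 probe lies within the introduced sequence is not given in the sources used here. The rise of the MOAP1 probe therefore cannot be assigned to the introduced or the endogenous gene. Because the RASSF1 probe showed no rise, that group is called tumors labelled RASSF1A below.

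Over the 5 constructs, 4 of the 12 member probes (33.3%) differed by the moderated F test of limma, against 43.4% of all probes. They were CDK2 (adjusted p = 0.000156), CCND3 (adjusted p = 0.000735), CCNE1 (adjusted p = 0.00251) and CCND1 (adjusted p = 0.00278). CCND2, CDK4, CDK6, both CCNE2 probes, both CDKN1B probes and RB1 did not pass. In bulk tumors, more cells with a transcript and more transcript per cell cannot be told apart.

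**Figure D1:**
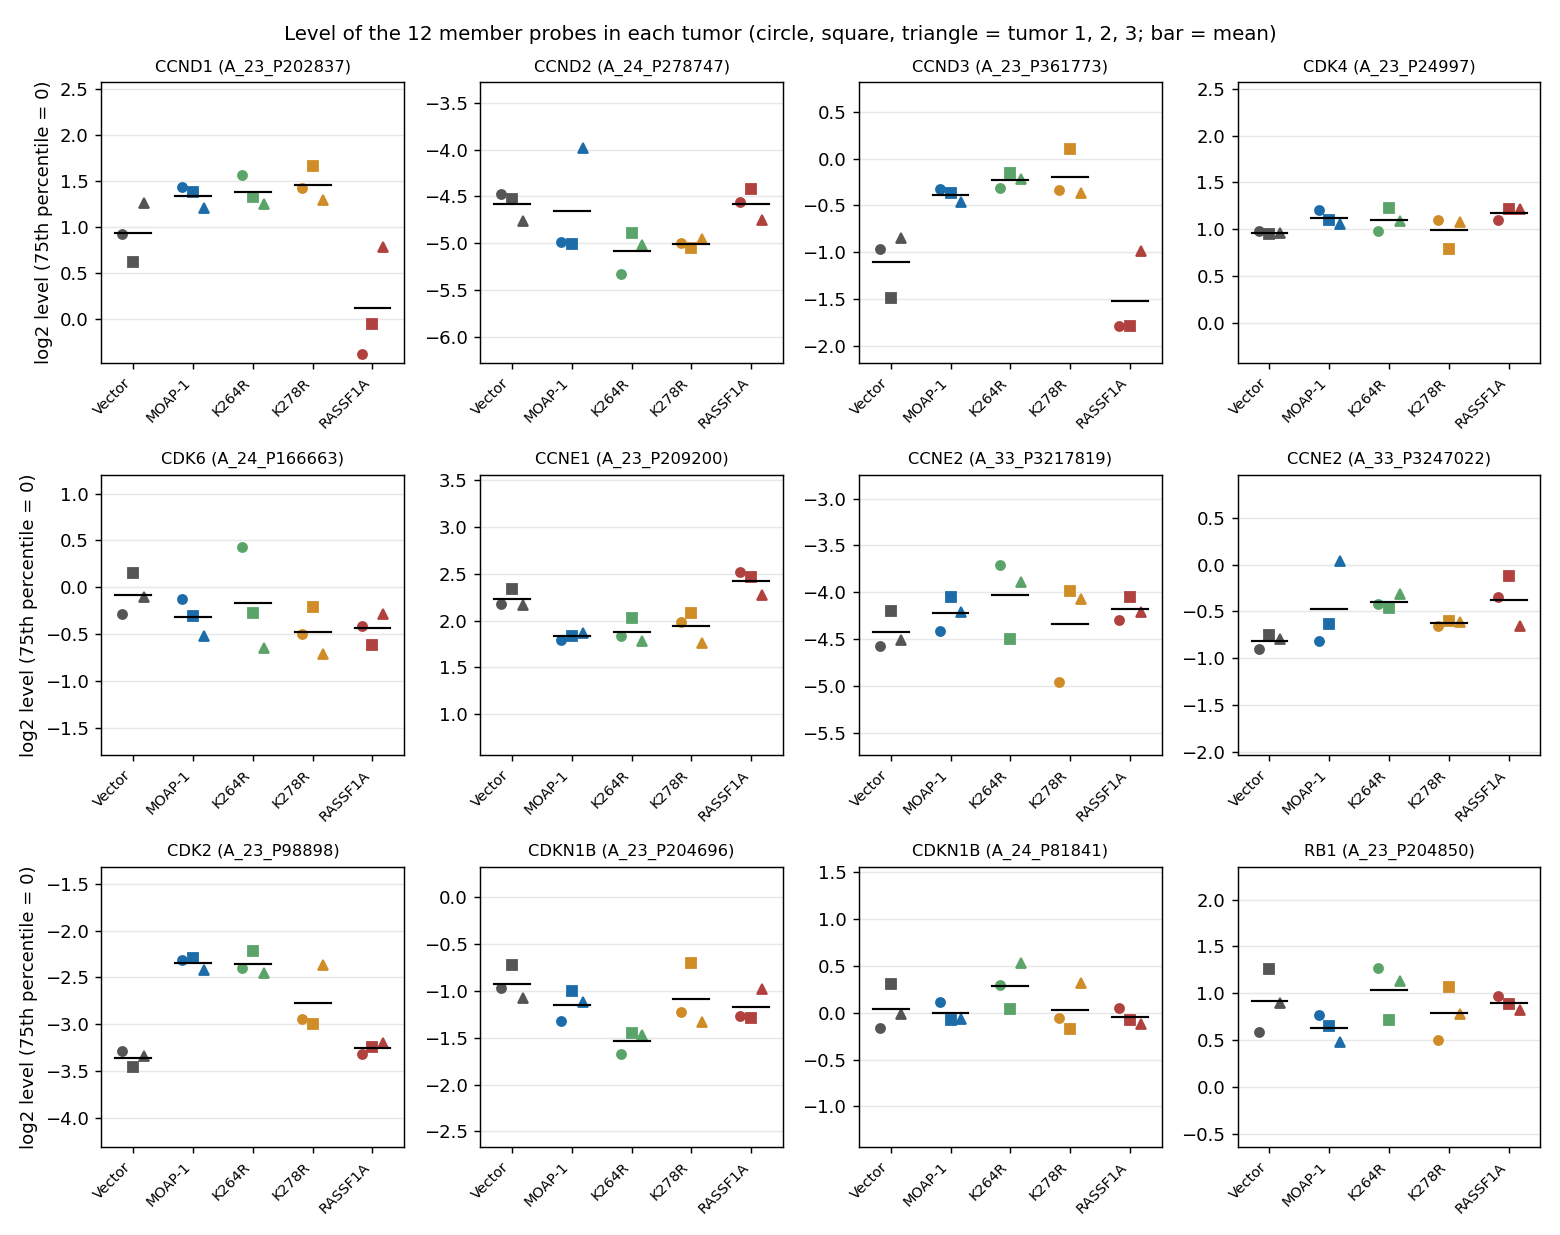
Level of each of the 12 member probes in the 15 tumors, as log2 intensity with the 75th percentile of the array at 0, by construct. Circles, squares and triangles are tumors 1, 2 and 3 and bars are means of 3 tumors. CDK2 and CCND3 lie above the vector tumors in all 9 tumors of the 3 MOAP-1 constructs, CCND1 is lowest in tumors 1 and 2 labelled RASSF1A, and RB1 overlaps between vector and every other construct.

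CCND3, the D-type cyclin with the widest use across tissues, rose with all 3 MOAP-1 constructs. Its levels (probe A_23_P361773) were -0.97, -1.49 and -0.85 in vector tumors and -0.32, -0.37 and -0.46 in MOAP-1 tumors. The K264R tumors gave -0.31, -0.15 and -0.21, and the K278R tumors gave -0.33, 0.11 and -0.37. Each of these 9 tumors was above the highest vector tumor. The rise was 0.71 with MOAP-1, or 1.64-fold (SE 0.21, limma adjusted p = 0.0238). With K264R it was 0.87, or 1.83-fold (SE 0.21, limma adjusted p = 0.00714), and with K278R 0.90, or 1.87-fold (SE 0.21, limma adjusted p = 0.0127). All 3 calls were lost with the normexp background model, under which the differences were 0.25, 0.46 and 0.42 (limma adjusted p = 0.328, 0.342 and 0.279), or 0.78, 0.77 and 0.89 relative to the median of all probes.

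The lowest vector level, that of tumor 2, bears on these values. Without vector tumor 2 the rise was 0.52 with MOAP-1 (limma adjusted p = 0.111) and 0.71 with K278R (limma adjusted p = 0.065). The MOAP-1 call was also lost without MOAP-1 tumor 1 (limma adjusted p = 0.0614) or tumor 2 (limma adjusted p = 0.063). Without K278R tumor 2, the array that stood apart, the CCND3 rise with K278R was 0.75 (limma adjusted p = 0.0382).

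RefSeq (GRCh38.p14) places CCND3 on the minus strand of chromosome 6 with 3 start entries, of which the pair with a GC box is shown because CCND3 was called higher with each MOAP-1 construct. The 250 bases before each start are given 5′ to 3′, at chr6:41941809-41942058 and chr6:42048689-42048938. Capitals mark GC boxes, the letters GGGCGG on either strand.
CCND3, start entry 2: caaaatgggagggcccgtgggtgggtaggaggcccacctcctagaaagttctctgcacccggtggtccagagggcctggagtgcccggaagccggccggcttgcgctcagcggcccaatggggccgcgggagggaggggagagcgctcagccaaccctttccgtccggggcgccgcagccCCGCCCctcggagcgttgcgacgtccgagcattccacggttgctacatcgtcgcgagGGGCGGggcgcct
CCND3, start entry 3: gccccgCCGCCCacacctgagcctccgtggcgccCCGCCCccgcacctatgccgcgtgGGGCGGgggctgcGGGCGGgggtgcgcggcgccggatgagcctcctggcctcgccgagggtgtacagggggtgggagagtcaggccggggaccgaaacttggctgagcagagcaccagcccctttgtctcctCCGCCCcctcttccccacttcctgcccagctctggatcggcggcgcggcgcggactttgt
The first window held 2 GC boxes and the second 5, and 42.6% of all 35116 RefSeq promoters held at least 1 in the same 250 bases. The E2F forms TTTCGCGC, TTTGGCGC and TTTCCCGC, searched on both strands, were in neither window and in 2.32% of all promoters. Of the 10 members 6 had a promoter entry, 9 entries in all, and none of the 9 held these 3 forms.

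CCND1, which encodes cyclin D1, followed the same order of construct means, with smaller differences from vector for the MOAP-1 constructs. The pooled SD between tumors of a construct was 0.33 for CCND1 and 0.29 for CCND3. On probe A_23_P202837 the vector tumors gave 0.93, 0.63 and 1.27. MOAP-1 tumors gave 1.44, 1.39 and 1.21, K264R tumors 1.57, 1.33 and 1.26, and K278R tumors 1.43, 1.67 and 1.30. Vector tumor 3 overlapped the MOAP-1 and K264R tumors and lay just below the lowest K278R tumor. The differences from vector were 0.41 for MOAP-1 (95% interval -0.12 to 0.93), 0.44 for K264R (95% interval -0.08 to 0.97) and 0.52 for K278R (95% interval -0.00 to 1.05). None was called, with limma adjusted p values of 0.221, 0.176 and 0.138.

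Tumors labelled RASSF1A had the lowest CCND1. Tumors 1 and 2 gave -0.38 and -0.05, below every other tumor, and tumor 3 gave 0.78, between vector tumors 2 and 1. Against vector the difference was -0.82 (SE 0.24, 95% interval -1.35 to -0.30), with an unadjusted limma p of 0.00486 and an adjusted p of 0.341. Tumor 3 was on the slide of the vector tumors, where its difference from their mean was -0.16, whereas tumors 1 and 2 were on another slide and scanned on another day. Without tumor 3 labelled RASSF1A the difference was -1.16 (limma adjusted p = 0.00743). The part of slide and scan day was not tested apart from these values.

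Among the comparisons made, CCND1 was called in MOAP-1 against tumors labelled RASSF1A. The MOAP-1 tumors were higher by 1.23, or 2.34-fold (SE 0.24, limma adjusted p = 0.00168), and the groups did not overlap. K264R and K278R, with mean CCND1 levels of 1.38 and 1.47 beside 1.35 for MOAP-1, were not tested against tumors labelled RASSF1A. CCND3 was -1.78, -1.79 and -0.99 in tumors labelled RASSF1A, so that MOAP-1 tumors were higher by 1.13, or 2.19-fold (SE 0.21, limma adjusted p = 0.00125). With the scan day as a block these differences were 0.56 for CCND1 (limma adjusted p = 0.138) and 0.60 for CCND3 (limma adjusted p = 0.108), and neither was called. In tumors labelled RASSF1A against vector, CCND3 differed by -0.42 (SE 0.21, limma adjusted p = 0.447), and without tumor 3 by -0.69 (limma adjusted p = 0.0472). Tumor 3, on the slide of the vector tumors, differed from their mean in CCND3 by 0.11, in the other direction. The value without tumor 3 rests on tumors of another slide and scan day.

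CCND2, which encodes cyclin D2, was read by a dim probe (A_24_P278747). Before background correction its spot read 82.0 to 131.5 over a local background of 55.0 to 71.5. The vector tumors gave levels of -4.48, -4.52 and -4.76, and MOAP-1 tumors gave -4.99, -5.01 and -3.99. MOAP-1 tumor 3 was the highest of all 15 tumors. K264R tumors (-5.33, -4.89 and -5.02) and K278R tumors (-5.00, -5.05 and -4.96) all lay below the vector tumors. The differences were -0.49 for K264R (SE 0.22, limma adjusted p = 0.102) and -0.42 for K278R (SE 0.22, limma adjusted p = 0.193), and neither passed. CCND2 was called lower with K278R after quantile normalization (-0.64, limma adjusted p = 0.0359) and with K264R after normexp without spots of extreme local background (-0.68, limma adjusted p = 0.00266).

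The kinases that D-type cyclins activate were not called in any comparison. CDK4 (probe A_23_P24997) was between 0.79 and 1.23 in all 15 tumors. Its largest difference from vector was 0.21 in tumors labelled RASSF1A (95% interval -0.00 to 0.43, limma adjusted p = 0.417), and the 3 MOAP-1 constructs differed from vector by 0.02 to 0.15. CDK6 (probe A_24_P166663) ran from -0.72 in K278R tumor 3 to 0.43 in K264R tumor 1, and the K264R tumors alone spanned most of that range (SD 0.55). Its differences from vector ran from -0.39 with K278R (SE 0.23, limma adjusted p = 0.234) to -0.08 with K264R (SE 0.23, limma adjusted p = 0.812).

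CDK2, the kinase that cyclin E activates, showed the clearest separation among the members. Its levels (probe A_23_P98898) were -3.29, -3.45 and -3.34 in vector tumors and -2.31, -2.30 and -2.42 in MOAP-1 tumors. K264R tumors gave -2.40, -2.21 and -2.45, K278R tumors -2.94, -2.99 and -2.37, and tumors labelled RASSF1A -3.32, -3.24 and -3.20. All 9 tumors with a MOAP-1 construct lay above all 6 others. CDK2 rose by 1.02 with MOAP-1, or 2.03-fold (SE 0.14, limma adjusted p = 0.000345), and by 1.00 with K264R, or 2.01-fold (SE 0.14, limma adjusted p = 0.00024). With K278R it rose by 0.59, or 1.51-fold (SE 0.14, limma adjusted p = 0.0131), just past the fold threshold. That call was lost without K278R tumor 3 (0.39, limma adjusted p = 0.0308), without vector tumor 2 (0.54, limma adjusted p = 0.0598), after quantile normalization (0.44, limma adjusted p = 0.0459) and with only the arrays compared (limma adjusted p = 0.0882), and without K278R tumor 2 the rise was 0.70 (limma adjusted p = 0.00766). Against tumors labelled RASSF1A, CDK2 was higher in MOAP-1 tumors by 0.91, or 1.89-fold (SE 0.14, limma adjusted p = 0.000322). With the scan day as a block that difference was 0.86 (limma adjusted p = 0.0189). These groups shared no slide, and the scan day as a block does not separate slide from construct.

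The probe for CDK2 was dim, and array brightness moved with its level on part of the arrays. Before background correction its 10 spots read 118.0 to 137.7 in vector tumors, 224.3 to 260.6 in MOAP-1 tumors, 302.0 to 324.3 in K264R tumors, 126.7 to 289.1 in K278R tumors and 124.4 to 153.7 in tumors labelled RASSF1A, over local backgrounds of 55.3 to 70.6. The 75th percentile of the array was 631 to 767.6 for vector, 799.6 to 1022 for MOAP-1, 1176 to 1402 for K264R and 612.7 to 817.8 for RASSF1A. Among the K278R tumors, tumor 3 had both the highest percentile (1152) and the highest CDK2, and tumor 2 both the lowest percentile (496.3) and the lowest CDK2. K278R tumor 2 was the dimmest of all 15 arrays, and its CDK2 level lay above every vector tumor. Its background-corrected CDK2 signal before scaling was 62.3, within the 58.5 to 75.8 of the vector tumors. Tumor 3 labelled RASSF1A (817.8) was brighter than MOAP-1 tumor 2 (799.6), with a CDK2 level of -3.20 against -2.30. All CDK2 calls were lost with the normexp background model, under which CDK2 differed from vector by -0.31 with MOAP-1, 0.07 with K264R and -0.55 with K278R (limma adjusted p = 0.585, 0.922 and 0.358). The median of all probes was then -0.53, -0.31 and -0.46, and relative to it CDK2 differed by 0.22, 0.38 and -0.09. Against tumors labelled RASSF1A the normexp difference was 0.53 (limma adjusted p = 0.792). When normexp was fitted without spots of extreme local background, the differences from vector were 0.55 with MOAP-1 (limma adjusted p = 0.00195), 0.46 with K264R (limma adjusted p = 0.00355) and 0.31 with K278R (limma adjusted p = 0.0741), all under 1.5-fold and so not called. The part of array brightness in the CDK2 result was not tested.

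CCNE1, a cyclin partner of CDK2, differed from vector in the opposite direction to CDK2 with the MOAP-1 constructs. Its probe, A_23_P209200, gave 2.17, 2.34 and 2.17 in vector tumors and 1.79, 1.84 and 1.86 in MOAP-1 tumors. K264R tumors gave 1.83, 2.02 and 1.78, K278R tumors 1.99, 2.08 and 1.76, and tumors labelled RASSF1A 2.52, 2.47 and 2.27. Every tumor with a MOAP-1 construct was below every vector tumor, although the differences were small. Background-corrected CCNE1 signals before scaling were 2847.2 to 3449.6 in vector tumors and 2862.5 to 3723.3 in MOAP-1 tumors. They were 4356.0 to 4829.5 in K264R tumors and 2100.6 to 3896.3 in K278R tumors. Before scaling they thus overlapped vector or, with K264R, lay above it. The part of array brightness in the CCNE1 result was not tested. CCNE1 fell by 0.40 with MOAP-1 (SE 0.11, limma adjusted p = 0.0154) and by 0.35 with K264R (SE 0.11, limma adjusted p = 0.0249), both under 1.5-fold and so not called. With K278R the difference was -0.28 (SE 0.11, limma adjusted p = 0.0779). MOAP-1 tumors were lower than tumors labelled RASSF1A by 1.50-fold, a log2 difference of -0.59 (SE 0.11, limma adjusted p = 0.00104). That call sat at the fold threshold, with -0.54 without tumor 1 labelled RASSF1A, -0.56 without tumor 2 and -0.57 without MOAP-1 tumor 1. With the scan day as a block the difference was -0.44 (limma adjusted p = 0.0686). The call was also lost after quantile normalization (-0.40), with the authors' normalized values (-0.58) and with both normexp fits (-0.54).

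The promoter of CCNE1 on the plus strand of chromosome 19 is shown because every tumor with a MOAP-1 construct lay below every vector tumor in CCNE1. It is the 250 bases before the RefSeq start at chr19:29811741-29811990 (GRCh38.p14), 5′ to 3′, with GC boxes in capitals.
CCNE1: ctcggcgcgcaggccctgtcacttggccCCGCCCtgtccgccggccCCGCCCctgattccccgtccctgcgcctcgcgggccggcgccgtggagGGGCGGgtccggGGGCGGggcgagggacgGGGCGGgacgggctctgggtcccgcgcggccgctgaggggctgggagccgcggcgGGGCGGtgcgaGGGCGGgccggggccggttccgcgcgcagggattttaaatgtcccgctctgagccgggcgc
It held 7 GC boxes, the highest number among the 9 member promoters, and none of the 3 E2F forms. CDK4 and one of the CDK6 entries held 3 each. The RB1 entry used here (chr13:48476200-48476449) held none, and any start of RB1 outside that entry was not searched. These matches are letters in a window and not sites of binding.

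CCNE2, the other E-type cyclin, was measured by 2 probes. Probe A_33_P3247022 gave -0.90, -0.75 and -0.79 in vector tumors, -0.81, -0.64 and 0.04 in MOAP-1 tumors, and -0.42, -0.46 and -0.32 in K264R tumors. K278R tumors gave -0.66, -0.61 and -0.61, and tumors labelled RASSF1A -0.35, -0.12 and -0.66. All K264R and K278R tumors and all tumors labelled RASSF1A were above the vector tumors. The mean differences were 0.41 for K264R (limma adjusted p = 0.0956), 0.19 for K278R (limma adjusted p = 0.479) and 0.44 for RASSF1A (limma adjusted p = 0.377, unadjusted p = 0.032). Probe A_33_P3217819 was dim and ran from -4.96 to -3.71, with spots at 85.0 to 165.0 before background correction, and overlapped in every comparison with vector. Neither probe was called.

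CDKN1B, the inhibitor of cyclin E with CDK2, also had 2 probes, and they disagreed. Probe A_23_P204696, with a single spot per array, gave -0.97, -0.72 and -1.08 in vector tumors and -1.68, -1.45 and -1.47 in K264R tumors, a fall of 0.61, or 1.53-fold (SE 0.16, limma adjusted p = 0.0117). Probe A_24_P81841, with 10 spots per array, gave -0.17, 0.31 and -0.01 in vector tumors and 0.30, 0.04 and 0.53 in K264R tumors, a difference of 0.25 in the other direction (SE 0.16, limma adjusted p = 0.25). The direction of CDKN1B in K264R tumors therefore differed between its probes. The call of the first was lost without vector tumor 2 (limma adjusted p = 0.0551) or without K264R tumor 1 (limma adjusted p = 0.0516). It was also lost with the authors' normalized values (-0.56), with array weights (-0.56) and with normexp (-0.42, or -0.55 without spots of extreme local background). In MOAP-1, K278R and RASSF1A-labelled tumors neither probe was called, with differences from vector between -0.25 and -0.02.

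RB1, the substrate of both kinase pairs, was not called in any comparison. Its probe, A_23_P204850, gave 0.58, 1.26 and 0.89 in vector tumors, 0.77, 0.65 and 0.48 in MOAP-1 tumors and 1.27, 0.71 and 1.13 in K264R tumors. K278R tumors gave 0.51, 1.07 and 0.78, and tumors labelled RASSF1A 0.97, 0.89 and 0.82. The vector tumors alone covered nearly the whole range of RB1. The differences from vector were -0.28 for MOAP-1 (95% interval -0.69 to 0.13), 0.12 for K264R (95% interval -0.28 to 0.53), -0.13 for K278R (95% interval -0.53 to 0.28) and -0.02 for tumors labelled RASSF1A (95% interval -0.43 to 0.39). A rise of 1.5-fold, which is 0.58 on the log2 scale, lay outside all 4 intervals, and a fall of that size lay within the interval for MOAP-1 and outside the other 3.

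**Figure D2:**
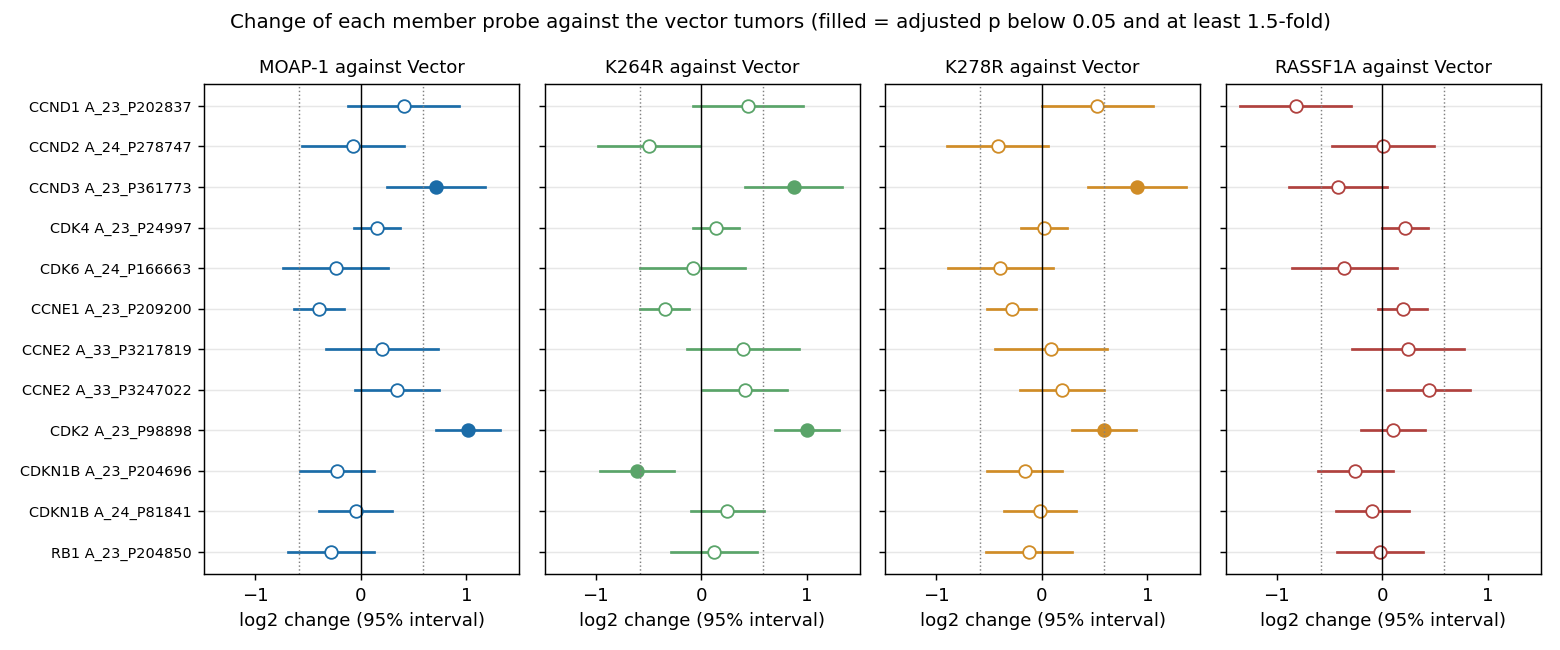
Log2 change of each member probe against the 3 vector tumors for the 4 other constructs, with 95% intervals from limma; dotted lines mark 1.5-fold. Filled points were called, which were CCND3 and CDK2 for MOAP-1, K264R and K278R and CDKN1B on A_23_P204696 for K264R, and no point is filled for RASSF1A.

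4 of the member probes had 10 spots on every array, which gives the error of a spot within an array. For CCND1 the spots of one array had a median SD of 0.05, and the 3 tumors of a construct had a pooled SD of 0.33. The tumors labelled RASSF1A gave the highest of these (0.60). For CDK2 the corresponding values were 0.05 and 0.17, for the CDKN1B probe 0.05 and 0.20, and for RB1 0.06 and 0.25. Each tumor was read on 1 array, so the error of an array and the difference between tumors cannot be told apart in the second value.

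**Figure D3:**
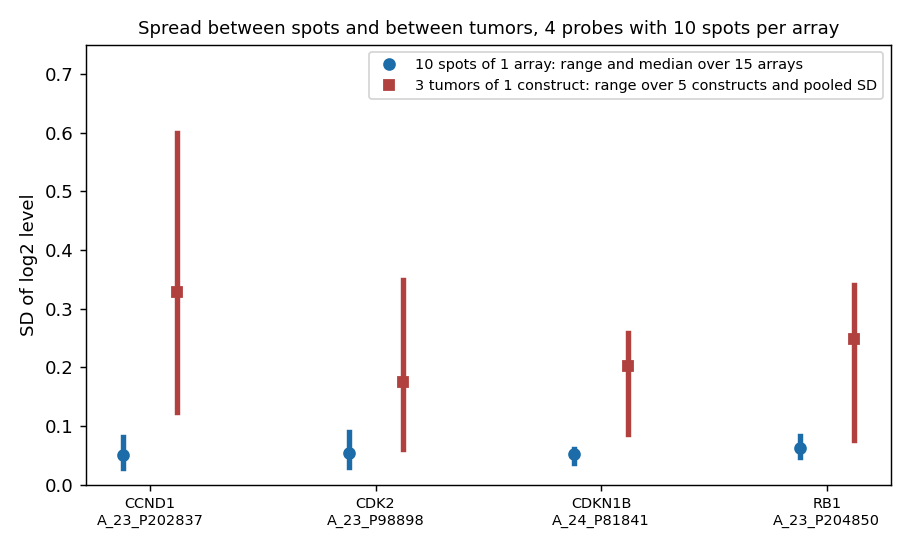
SD of the log2 level between the 10 spots of an array (blue, range and median over 15 arrays) and between the 3 tumors of a construct (red, range over 5 constructs and pooled value) for the 4 member probes with 10 spots. The pooled SD between tumors was 0.17 to 0.33, above the highest spot SD of 0.09.

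By comparison, 2 of 12 member probes (16.7%) were called with MOAP-1 against vector, both higher, where 16.6% of all probes were called, so the members were called about as often as the array as a whole. With K264R 3 of 12 (25.0%) were called, 2 higher and 1 lower, against 19.5% of all probes. With K278R 2 of 12 (16.7%) were called, against 10.9%. The median change of the members was 0.05, 0.19 and 0.0037, beside 0.02, -0.05 and 0.06 over all probes. These comparisons share the 3 vector tumors and are not independent of each other.

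In tumors labelled RASSF1A against vector, limma called 0 of the 12 member probes, and 0% of all probes. At an unadjusted p below 0.05 it gave 2 member probes (CCND1 and CCNE2 on A_33_P3247022) and 3695 of all 30585 probes. The methods' t-test at 1.5-fold and an unadjusted p below 0.05 gave 0 member probes and 187 probes in all, and none after adjustment. The 2 members CCND1 and CCND3 passed when tumor 3 labelled RASSF1A, which shared the slide of the vector tumors, was left out. In all, 1408 probes then did so.

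The changed lysines were compared with wild type MOAP-1. Against K264R limma called 0 member probes and 0.00327% of all probes, which is 1 probe. Against K278R it called 0 member probes and 0% of all probes. At an unadjusted p below 0.05 there was 1 member in each, the single-spot CDKN1B probe against K264R (difference 0.38, limma adjusted p = 0.442) and CDK2 against K278R (difference 0.43, limma adjusted p = 0.465), beside 3325 and 2821 of all probes. The methods' t-test gave 0 member probes in both. For CDK2 the 95% interval of MOAP-1 minus K264R was -0.29 to 0.32, and that of MOAP-1 minus K278R 0.12 to 0.73. On the slide that MOAP-1 tumor 2 shared with the 3 K278R tumors the CDK2 difference was 0.47. Without K278R tumor 3 it was 0.63 (limma adjusted p = 0.0183) and called, so whether K278R raised CDK2 less than the wild type turned on that tumor.

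Between MOAP-1 tumors and tumors labelled RASSF1A, 4 of 12 member probes (33.3%) were called, against 21.2% of all probes. CCND1, CCND3 and CDK2 were higher in MOAP-1 tumors and CCNE1 was lower. The median over the members was -0.0072 and that over all probes -0.01.

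The 30 partners of the members in this pathway included other kinase inhibitors, the relatives of RB1, E2F factors and the ubiquitin ligase subunits that destroy cyclin E and CDKN1B. At the brightest probe of each gene, 2 of 30 (6.67%) were called higher and 3 (10%) lower with MOAP-1 against vector, where 9.18% and 5.83% of 18016 genes were. CUL1, the scaffold of the SCF ligase, rose by 0.75 (SE 0.10, limma adjusted p = 0.000299), and CCNA2, the cyclin of S phase, by 0.72 (SE 0.13, limma adjusted p = 0.00134). CDKN1C, a relative of CDKN1B, fell by 0.77 (SE 0.16, limma adjusted p = 0.00314). The other 2, named after their values were seen, were CDK3, with a fall of 0.71, and CDKN2A, an inhibitor of CDK4 and CDK6, with a fall of 0.65.

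With K264R 3 partners (10%) were called higher and 3 (10%) lower, against 9.46% and 8.93% of all genes. CCNA2 rose by 0.98 (limma adjusted p = 0.00017), and CDKN1C fell by 0.89 (limma adjusted p = 0.00101) and CDK3 by 0.85 (limma adjusted p = 0.000503). With K278R 1 (3.33%) was called higher and 2 (6.67%) lower, against 6.6% and 2.96% of all genes. CDKN1A, the inhibitor induced by DNA damage, rose by 0.67 (limma adjusted p = 0.00609). CDKN1C fell by 0.76 (limma adjusted p = 0.007) and CDK7, part of the kinase that activates CDKs, by 0.60 (limma adjusted p = 0.00562). CDKN1A was also higher by 0.56 with MOAP-1 (limma adjusted p = 0.00822, under 1.5-fold). In tumors labelled RASSF1A 0 of 30 partners were called by limma.

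Of 20 E2F target genes, 3 were called higher with MOAP-1, 4 with K264R, 1 with K278R and 0 in tumors labelled RASSF1A, and none was called lower. These are 15%, 20% and 5% for the 3 MOAP-1 constructs, against 9.18%, 9.46% and 6.6% of all genes, so the share with K278R was below that of all genes. RRM2, a subunit of ribonucleotide reductase, rose by 1.91 with MOAP-1 (SE 0.20, limma adjusted p = 0.000159), by 1.97 with K264R (SE 0.20, limma adjusted p = 7.21e-05) and by 1.18 with K278R (SE 0.20, limma adjusted p = 0.00298). PCNA, the sliding clamp of DNA polymerase, rose by 0.61 with MOAP-1 (limma adjusted p = 0.00215) and by 0.69 with K264R (limma adjusted p = 0.000736). CCNA2 belongs to this list too. The median of the list was 0.13 with MOAP-1, 0.26 with K264R, 0.08 with K278R and 0.14 in tumors labelled RASSF1A, beside 0.01, -0.02, 0.04 and 0.03 over all genes.

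**Figure D4:**
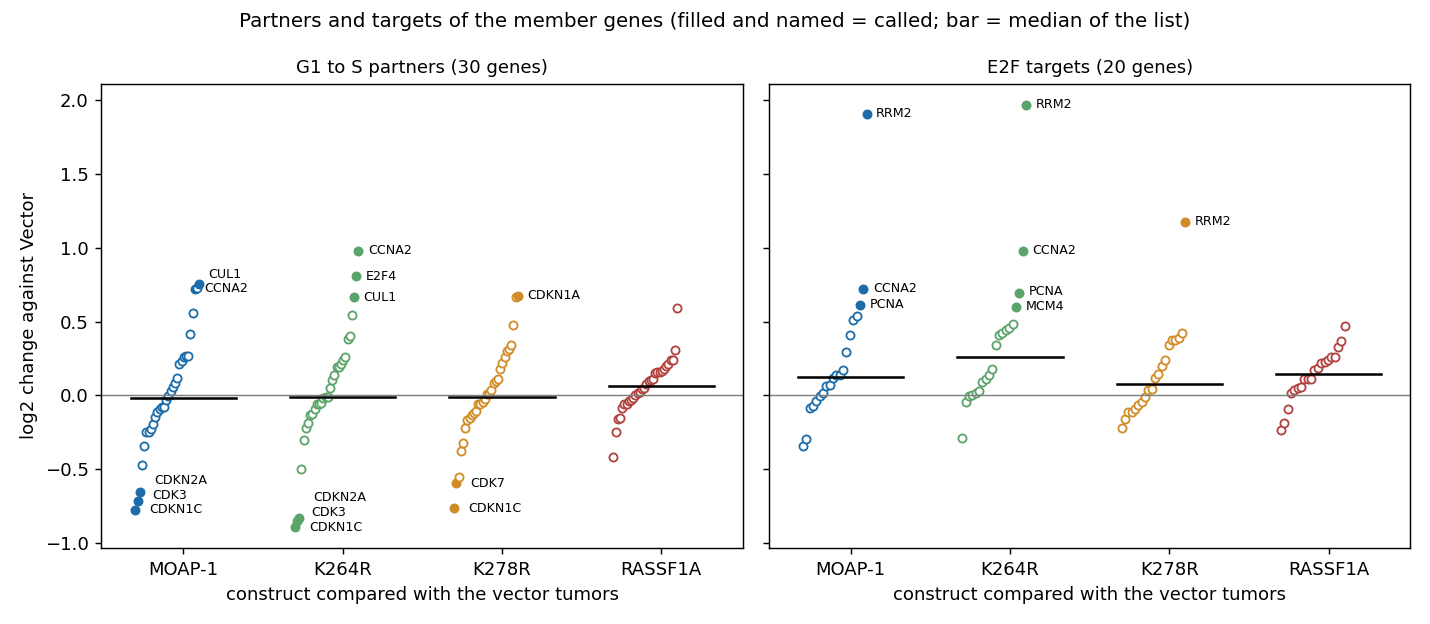
Log2 change against the vector tumors of 30 G1 to S partners and 20 E2F targets at the brightest probe of each gene. Filled, named points were called and bars are list medians, which lay between -0.02 and 0.26; RRM2 stood above the other targets with MOAP-1 (1.91), K264R (1.97) and K278R (1.18).

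Cell type markers were read beside these results. Of 12 markers of proliferating cells 11 were measured, and 3 were called higher with MOAP-1, 4 with K264R and 2 with K278R, TOP2A and AURKB in each. These are 27.3%, 36.4% and 18.2% of the measured markers, against 9.18%, 9.46% and 6.6% of all genes, and none was called lower. The median of the list was -0.01, 0.14 and 0.05. MKI67 differed from vector by -0.13, -0.29 and -0.12 and CENPF by -0.18, -0.12 and -0.24, and neither passed. The summed level of the list was 5.01 to 5.13 in vector tumors, 4.97 to 5.08 in MOAP-1 tumors, 4.97 to 5.20 in K264R tumors, 4.91 to 5.12 in K278R tumors and 5.21 to 5.46 in tumors labelled RASSF1A. The sum was thus highest where CCND1 and CCND3 were lowest. The summed stromal fibroblast markers, 7 of 8 measured, were 1.03 to 2.95 in vector tumors, 2.51 to 5.45 in MOAP-1 tumors, 2.22 to 4.28 in K264R tumors, 3.45 to 5.37 in K278R tumors and 3.01 to 3.52 in tumors labelled RASSF1A. LUM was not well above background on any array. Endothelial markers, 5 of 6 measured, summed to 1.08 to 1.25 in vector tumors and 1.19 to 1.89 in the others, with TEK above background on 5 of 15 arrays. Leukocyte markers, 7 of 7, summed to 3.18 to 3.86 in all tumors. The part of host cells, whose RNA can hybridize to human probes, in the changes of the members was not tested.

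Among the genes whose level ran most like that of CCND1 over the 15 arrays (18015 genes compared) were CAPNS2, a calpain subunit (Pearson r = 0.989), and CGREF1 (r = 0.987). For RB1 they were CALM2, a calmodulin (r = 0.971), MYL12A, a myosin light chain (r = 0.946), and NDFIP2, an adaptor of ubiquitin ligases (r = 0.932). These are descriptions over arrays that share constructs, slides and scaling, and for CCND1 the tumors labelled RASSF1A lie apart from the rest.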

How the data were processed

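Tumor RNA labeled with Cy3 was hybridized to 15 single-color Agilent arrays. The authors deposited the intensity of each spot as Agilent Feature Extraction gave it (version 9.1 per the labels, 10.5.1.1 per the file headers), corrected for background but with no scaling across arrays, beside the median intensities of spot and local background. A second deposited file held log2 values that the authors had normalized in GeneSpring GX, which served as an alternative. For 8 tumors these values were most like the spot intensities under the same label. For the other 7 they were most like those of another tumor of the same construct. Tumor numbers here follow the spot intensities. The file headers gave slide and scan day.

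Of 43118 spots other than controls, those marked as outliers were left out, processed intensities were put on the log2 scale and shifted so that the 75th percentile of an array lay at 0, and replicate spots were averaged into 34127 probes. Tests used 30585 probes, those well above background in every tumor of 1 construct or more. Accessions gave gene names through RefSeq (25422 probes, 74.5%, GRCh38.p14). The model was fitted in limma 3.58.1 (R 4.3.3; lmFit, eBayes) to the 15 arrays together, with construct as its only term and 10 residual degrees of freedom. Its p values were two-sided and Benjamini-Hochberg adjusted over the tested probes unless called unadjusted, and a call also needed 1.5-fold. The methods' t-test was unpaired with equal variance. The fit was tested on simulated data. Named genes were all member probes, MOAP1 and RASSF1, the 3 called partners and the 3 called E2F targets with the largest change in each comparison with vector, and the 3 genes most correlated with CCND1 and with RB1, of which 1 is not reported here. Members, lists and markers were chosen with earlier results of these data known. Precision is set by the number of tumors, since an array has no read depth.

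The alternatives were quantile normalization, normexp (offset 50) with and without spots of extreme local background, 2 other filters on dim probes, the authors' table, outlier spots kept, array weights, slide, scan day or replicate number as a block, only the arrays compared, the methods' t-test, no fold threshold, and each tumor left out. Probe sequences were not used here.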

Additional observations from a re-analysis of the deposited data

How the results depend on the processing

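Member calls changed most with the background model. Normexp gave 0 member calls with MOAP-1, 0 with K264R and 0 with K278R against vector (2, 3 and 2 as reported), 2 of 4 for MOAP-1 against tumors labelled RASSF1A and 2 of 4 in the F test, and it turned CDK2 to -0.31 with MOAP-1 and -0.55 with K278R. With it the median of all probes against vector was -0.53, -0.31, -0.46 and -0.52 for MOAP-1, K264R, K278R and RASSF1A (0.02, -0.05, 0.06 and 0.02 as reported), and it called 522, 914, 1 and, for MOAP-1 against RASSF1A, 2260 probes in place of 5079, 5949, 3337 and 6481. Normexp without spots of extreme background gave 1 member call with MOAP-1, 1 with K278R and 2 for MOAP-1 against RASSF1A, and 2629, 1329 and 3809 probes in all, with 1185, 662 and 2064 of them higher. With K264R it called 7868 probes, 1282 of them higher, in place of 2829 of 5949. Local background reached 23492.5 on vector tumor 2, 7942 on vector tumor 3 and 65379 on K264R tumor 2, over medians of 62, 63 and 69. Otherwise the cause was not tested. Quantile normalization changed the share of higher calls, with 2306 of 4729 for MOAP-1 against vector (3033 of 5079 as reported) and 1368 of 2665 for K278R (2359 of 3337).

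After adjustment the methods' t-test gave 1 member call with MOAP-1, 0 with K278R and 2 for MOAP-1 against RASSF1A, with 2627, 0 and 4201 probes in all. Unadjusted, it called 187 probes for RASSF1A against vector, 315 for MOAP-1 against K264R and 144 for MOAP-1 against K278R. A fit of only the arrays compared gave 0 member calls and 1171 probes with K278R. The scan day as a block left 1 of 4 members, CDK2, for MOAP-1 against RASSF1A and 3260 probes, and called 36 probes for RASSF1A against vector, where the slide as a fixed block called 26. Array weights called 1806 probes for MOAP-1 against K264R, with a weight of 0.28 for K278R tumor 2 and 13.2 for K264R tumor 3. Without a fold threshold 9337, 10678, 6313 and 11393 probes passed.

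Leaving out each tumor gave 1 to 2 member calls with MOAP-1, 0 to 2 with K278R, 0 to 2 with RASSF1A against vector and 0 to 1 for MOAP-1 against K278R. The 0 with K278R came without vector tumor 2 (1687 probes called) and the 1 without K278R tumor 3. The 1 for MOAP-1 against K278R was CDK2, without K278R tumor 3 (205 probes called), and the 2 with RASSF1A were CCND1 and CCND3, without its tumor 3 (1408 probes). MOAP-1 against K264R, 1 probe as reported, gave 0 to 36 when a tumor was left out, the 36 without MOAP-1 tumor 1, where MOAP-1 against K278R gave 8. The replicate numbers were not taken to pair the tumors. Deviations of same-numbered tumors correlated at -0.25 to 0.37 (median 0.11), and those of differently numbered tumors at -0.47 to 0.45 (median -0.03). These overlapping ranges cannot decide whether the tumors were paired. With the replicate block the member calls were 2, 3 and 2 with MOAP-1, K264R and K278R against vector, 0 with RASSF1A, 0 in both comparisons with the changed lysines, 4 for MOAP-1 against RASSF1A and 5 in the F test, the added probe being of CDKN1B.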
